A study of Mus musculus with 8 samples.

Results

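The genes of the IL-12 cytokine family (Il12a, Il12b, Il23a, Il27 and Ebi3) and of the IL-15 system (Il15 and its receptor chain Il15ra) were followed in bone marrow-derived macrophages (BMDMs, which are differentiated in a dish from marrow progenitors). They were taken by gene symbol from the expression tables of both times, and all 7 were present among 21080 symbols. RNA-seq had been performed to compare BMDMs of Nudt21-cKO mice with those of WT mice, with and without stimulation by IFNγ and LPS. The mice were C57BL/6. Nudt21-cKO (hereafter cKO) mice carried floxed Nudt21, with exons 2 and 3 between the loxP sites, and a Cre recombinase driven by LysM, a gene of the myeloid lineage. WT mice were littermates that carried the same LysM Cre, so both genotypes express the recombinase. At 0 h the BMDMs were taken without stimulation, and at 4 h they had received IFNγ at 50 ng/ml overnight and then LPS at 50 ng/ml for 4 h. The treatment label of the 0 h samples also names the stimulation, and their titles and the methods were followed here. Each of the 4 groups had 2 samples, called WT1, WT2, cKO3 and cKO4 at each time, and each sample pooled BMDMs of 2 mice. The age and sex of the mice were not used here.

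IL-12 family cytokines are built from pairs of shared chains. The p40 chain of Il12b pairs with the p35 chain of Il12a to form IL-12, which drives type 1 helper T cells and natural killer cells to make IFNγ, and with the p19 chain of Il23a to form IL-23, which sustains IL-17-producing T cells. The p28 chain of Il27 pairs with the Ebi3 chain to form IL-27, and Ebi3 with p35 forms IL-35. IL-15 keeps natural killer cells and memory CD8+ T cells alive and is shown to them on the surface of macrophages and dendritic cells, bound to IL-15Rα, the product of Il15ra. Nudt21 encodes CFIm25, a subunit of cleavage factor Im that binds UGUA in the pre-mRNA and takes part in choosing where the 3′ end is cut.

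The 3′ ends of these transcripts hold the letters that 2 kinds of RNA-binding protein read, and they are shown for that reason. AUUUA is the core of AU-rich elements, found in many short-lived cytokine mRNAs and bound by proteins such as tristetraprolin, and UGUA is the motif of CFIm25. In the longest 3′UTR of each gene among GENCODE M21 transcripts linked to RefSeq, AUUUA was counted 6 times in Il12a (497 bases), 6 times in Il12b (797 bases), 6 times in Il23a (657 bases) and 5 times in Il27 (285 bases). Per kilobase this is 12.1, 7.53, 9.13 and 17.5, above 99.2%, 97.1%, 98.3% and 99.8% of 18775 genes, whose median is 1.16 per kilobase. Ebi3 and Il15 have 1 AUUUA each, in 245 and 282 bases, and Il15ra has 5 in 1068 bases. These are 4.08, 3.55 and 4.68 per kilobase, above 88.4%, 84.8% and 91.3% of genes. UGUA was counted 7 times in Il12b and 7 in Il15ra, 4 in Il23a, 3 in Il15, 1 each in Il12a and Ebi3, and not at all in Il27, while 85.1% of genes hold at least 1. The richest windows of 30 bases are given below in the RNA sense (5′ to 3′), with AUUUA or UGUA in capitals. They lie on GRCm38 in the 3′UTR, on the strand of the gene, at chr3:68698436-68698465 (plus) for Il12a, chr11:44413473-44413502 (plus) for Il12b, chr10:128296179-128296208 (minus) for Il23a and chr7:126589087-126589116 (minus) for Il27. The UGUA windows lie at chr8:82331672-82331701 (minus) for Il15 and chr2:11733814-11733843 (plus) for Il15ra.
Il12a AUUUA: cuAUUUAuAUUUAUUUAuuuucuAUUUAuu
Il12b AUUUA: AUUUAaguaAUUUAuguAUUUAuuaAUUUA
Il23a AUUUA: ugaugguuAUUUAuucuAUUUAuaaggaau
Il27 AUUUA: gauAUUUAuuucuuggauAUUUAUUUAuuu
Il15 UGUA: gcuucauuUGUAcauauuUGUAauauaaca
Il15ra UGUA: uaUGUAugugugugugugugUGUAUGUAaa
These letters were counted in the annotated transcripts, and binding and 3′ end use were not analysed here.

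The members rose together on stimulation, so the 5′ ends were searched for sites of the factors known to act there. RefSeq windows from 250 bases before to 50 after the start (GRCm38.p6) were found for Il12a, Il12b, Ebi3 and Il15ra. Il23a, Il27 and Il15 had no entry. On both strands, the NF-κB consensus was found in Ebi3 among these genes, at chr17:55952569-55952598 on the plus strand, and in 4.51% of 32851 windows. The IRF element AANNGAAA was found at both start sites of Il15ra and in 23.9% of windows. The AP-1 site TGANTCA was found at the second start site of Il15ra and in 7.81% of windows. The core of the interferon-stimulated response element and the C/EBP site TTGCNNAA were found in none of these members' windows (3.44% and 10.8% of all), which says only that those letters are not there. The 2 sites are printed with the motif in capitals, the Il15ra one from chr2:11705727-11705756 on the plus strand.
Ebi3 NF-κB: gccccttcctGGGGCTTCCCcgttggccat
Il15ra IRF: ggctaaagcaaAAGCGAAAgcgaatactcc

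Each value was read as the average depth of reads over the bases of a gene, a unit inferred from the values and not stated with them. Levels of different genes are set side by side on that reading. Summed over all symbols, coverage was 14950347 to 15827594 in the WT libraries and 16650103 to 17954882 in the cKO libraries, and no scaling between samples was found. The median gene was higher in cKO than in WT by 0.10 (log2) at 0 h and by 0.31 at 4 h, and lower at 4 h than at 0 h by -1.27 in WT and -1.05 in cKO. Before stimulation Nudt21 coverage was 679 ± 54.4 (SD, n = 2) in WT against 165 ± 9.87 (SD, n = 2) in cKO, and after it 561 ± 20.1 (SD, n = 2) against 129 ± 19.2 (SD, n = 2). It fell in cKO by 2.04 and 2.13 on the log2 scale (limma, Benjamini-Hochberg adjusted p = 0.0462 and 0.0445). All 8 macrophage markers were detected in every group, with a summed level of 120530 to 132928 at 0 h and 64070 to 75278 at 4 h, against 1.08 to 11.8 for 6 T and natural killer cell markers, of which Cd3e was at 0 in 7 of 8 samples. The 6 dendritic cell markers summed to 32.9 to 76.0 at 0 h, 1356 and 2146 in WT at 4 h and 1223 and 1253 in cKO at 4 h. Most of the 4 h sum was Clec9a, while Cd209a was at 0 in all 4 h samples. The 6 neutrophil markers at 0 h summed to 18620 and 19539 in WT against 21188 and 28240 in cKO. Most of that sum was S100a8 and S100a9, neither of them called. Retnlg went the other way and was called lower in cKO at 0 h (48.3 and 45.4 in WT against 20.8 and 28.3). At 4 h Retnlg was at 1.74 and 5.28 in WT and at 0 in cKO. The 4 B cell markers at 0 h summed to 125 and 143 in WT against 67.9 and 73.5 in cKO. Most of this was Cd79b, which was called lower in cKO, while Cd79a overlapped between the genotypes. The 5 stromal markers summed to 52.2 to 227 over all samples. Of these, Col3a1 was called higher in cKO at both times (log2 1.07 at 0 h and 1.22 at 4 h), while Col1a1, Col1a2, Dcn and Pdgfrb were not called. Of the 8 macrophage markers, Cd68 was called higher and Adgre1 and Fcgr1 lower in cKO at 0 h, where the summed levels of the genotypes overlapped. At 4 h Cd68 and Lyz2 were called higher in cKO. The dendritic cell sum moves with stimulation as the cytokine genes do. Single B cell, neutrophil, macrophage and stromal markers differed between the genotypes, in both directions. The part of these markers in the results was not tested. In bulk RNA, more cells of a type and more RNA per cell cannot be told apart.

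Coverage of all 7 genes was higher at 4 h than at 0 h in every sample of both genotypes. In each genotype 6 members met the filter on low values without relying on the 4 h samples, and limma called 6 of 6 higher in WT and 6 of 6 in cKO. A gene was called when its fold change exceeded 1.5 with an unadjusted p under 0.05, and across all genes 11.9% were called higher and 55.1% lower in WT and 13.7% higher and 53.2% lower in cKO. Il12a in WT and Il23a in cKO met the filter only through their 4 h samples, and their values are descriptions. The other 6 also passed an adjusted p of 0.05 in each genotype, against 11.3% and 13.3% of all genes. The 0 h and 4 h values came from separate tables. The number of genes called higher and lower was 1907 and 8815 in WT and 2223 and 8627 in cKO, and after centring each sample on its median it was 5361 and 3581, and 5305 and 3758. After centring the same 6 members of each genotype remained called higher. The members differed in where they started. Il12a, Il12b and Il23a were at or near 0 before stimulation, Il27 was low, Il15ra and Il15 were intermediate, and Ebi3 was already abundant.

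**Figure D1:**
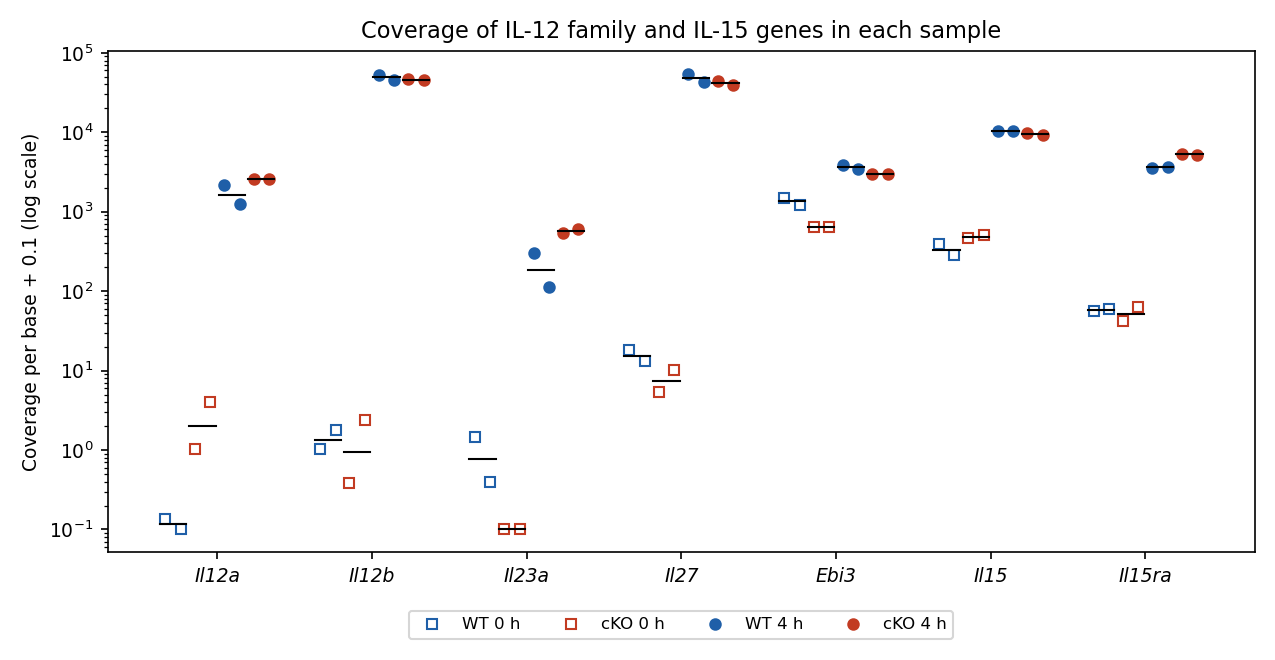
Coverage, read as mean depth per base, plus 0.1 (log scale) of the 7 genes in each of the 8 samples. Open squares mark 0 h and filled circles 4 h, blue is WT and red is cKO, and lines mark the mean of the log2 values. Every 4 h sample lies above every 0 h sample of the same gene, and at 4 h Il12b and Il27 reach 39748 to 54903.

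Il12b (chr11:44400063-44414033, plus strand) went from nearly silent to one of the most covered transcripts. Its coverage at 0 h was 0.938 in WT1, 1.67 in WT2, 0.284 in cKO3 and 2.28 in cKO4. At 4 h it was 53245 in WT1, 45364 in WT2, 46621 in cKO3 and 44881 in cKO4, which placed it 33rd to 44th from the top of 21080 symbols. The genotypes overlapped at both times and stimulation separated every sample. The log2 fold change of 4 h against 0 h was 15.15 (SE 0.34) in WT and 15.54 (SE 1.08) in cKO (limma, adjusted p = 0.00178 and 0.003). With a pseudocount of 1 these were 14.40 and 14.44, and leaving out 1 sample moved the cKO value between 14.23 (without cKO3 at 0 h) and 16.86 (without cKO4 at 0 h). Between the genotypes Il12b was not called at 4 h, with a log2 difference of -0.10 (95% interval -0.53 to 0.32, adjusted p = 0.626, limma). At 0 h the difference was -0.50 (95% interval -3.96 to 2.95, adjusted p = 0.817, limma), an interval too wide to place it.

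Il12a (chr3:68690644-68698547, plus strand), the partner chain of IL-12, was at the floor in unstimulated WT cells. Coverage at 0 h was 0.0339 in WT1 and listed at 0 in WT2, against 0.922 in cKO3 and 3.89 in cKO4. Both cKO samples were above both WT samples, at levels that are a very small part of those reached at 4 h. After stimulation it was 2177 in WT1, 1242 in WT2, 2578 in cKO3 and 2607 in cKO4. Here too both cKO samples were higher, and the WT samples differed from each other more than WT1 differed from cKO. Before stimulation the log2 difference was 4.12 (SE 0.81, limma). Il12a met the filter on low values there only through the cKO samples, in which it was higher, and WT was at the floor, so this value is a description and its test supports nothing. It was 1.59 with a pseudocount of 1 and 6.51 with 0.01, and it met the rule for a call with all samples but not without WT1 (4.33) or without WT2 (3.91). At 4 h the log2 difference was 0.66 (SE 0.34, adjusted p = 0.283, limma), not called, and 1.06 and called without WT1 (adjusted p = 0.129). Stimulation raised Il12a in cKO by 10.33 (SE 0.81) on the log2 scale (limma, adjusted p = 0.0036). In WT, with its 0 h samples at the floor, the value was 13.79, given as a description. With a pseudocount of 1 these were 9.73 in cKO and 10.66 in WT.

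Il23a (chr10:128296139-128298752, minus strand), the chain that makes IL-23 with p40, was the least covered member after stimulation. Coverage at 0 h was 1.37 in WT1, 0.296 in WT2 and listed at 0 in cKO3 and cKO4. After stimulation it was 299 in WT1, 112 in WT2, 547 in cKO3 and 605 in cKO4. The order of the genotypes was thus opposite at the 2 times, with every cKO sample below WT at 0 h and above WT at 4 h. At 0 h its mean was under the filter of 0.5 and it was not tested. At 4 h the log2 difference was 1.65 (95% interval -0.18 to 3.48), a mean of 576 ± 41.0 (SD, n = 2) in cKO against 206 ± 132 (SD, n = 2) in WT, and it was not called (unadjusted p = 0.064, adjusted p = 0.168, limma). WT1 and WT2 lay far apart, and without WT1 the difference was 2.36 (limma, adjusted p = 0.129) and without WT2 0.94 (adjusted p = 0.0981), both called by fold and unadjusted p. Stimulation raised Il23a in WT by 7.91 (SE 0.95) on the log2 scale (limma, adjusted p = 0.009). In cKO both 0 h samples were listed at 0, so the value of 12.49, or 9.17 with a pseudocount of 1, is a description.

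Il27 (chr7:126589010-126594941, minus strand), the p28 chain, reached the level of Il12b. Coverage at 0 h was 18.1 in WT1, 13.0 in WT2, 5.25 in cKO3 and 10.1 in cKO4. At 4 h it was 54903 in WT1, 43190 in WT2, 43960 in cKO3 and 39748 in cKO4, ranks 32 to 55 from the top. The cKO samples were below both WT samples at 0 h and overlapped WT at 4 h. The log2 difference was -1.06 (SE 0.43, adjusted p = 0.298, limma) at 0 h and -0.22 (SE 0.18, adjusted p = 0.444) at 4 h, neither called. Without cKO4 the 0 h difference was -1.53 and was called (unadjusted p = 0.0466, limma). Stimulation raised Il27 by 11.62 (SE 0.26) in WT and 12.47 (SE 0.39) in cKO (limma, adjusted p = 0.00178 and 0.00142). Il27 shares 103 exonic bases with Apobr on the opposite strand and the strand setting of the counting is not given in the sources used here. Apobr had a coverage of 641 to 1145 at 0 h, where it was called higher in cKO, so Il27 at 0 h is uncertain, while at 4 h Apobr was at 1126 to 2248.

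Ebi3 (chr17:55952640-55957022, plus strand), the other chain of IL-27, was the most covered member before stimulation and moved least. Coverage at 0 h was 1506 in WT1, 1227 in WT2, 646 in cKO3 and 639 in cKO4. The cKO samples were close to each other and both lay below WT. At 4 h it was 3831 in WT1, 3433 in WT2, 2969 in cKO3 and 3009 in cKO4, again with both cKO samples below WT. At 0 h Ebi3 fell in cKO by 1.08 on the log2 scale (SE 0.15, unadjusted p = 0.00525, adjusted p = 0.111, limma), and it was called whichever single sample was removed. For 4 h the log2 difference was -0.28 (SE 0.11, adjusted p = 0.21, limma), not called. After median-centring it was -0.62 and called (unadjusted p = 0.0429, limma). Stimulation raised Ebi3 by 1.42 (SE 0.18) in WT and 2.22 (SE 0.08) in cKO (limma, adjusted p = 0.00986 and 0.00151). Ebi3 shares 270 exonic bases with the antisense gene Gm16712, which was at 10.4 to 16.9 at 0 h and 99.4 to 169 at 4 h, well under Ebi3.

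Il15 (chr8:82331632-82403222, minus strand) and Il15ra (chr2:11705290-11734317, plus strand), cytokine and presenting chain, both rose on stimulation. Il15 coverage at 0 h was 388 in WT1, 288 in WT2, 463 in cKO3 and 506 in cKO4. After stimulation it was 10410 in WT1, 10501 in WT2, 9747 in cKO3 and 9204 in cKO4. Il15 was therefore above WT in both cKO samples at 0 h and below WT in both at 4 h. The log2 difference was 0.53 (95% interval -0.11 to 1.17, adjusted p = 0.281, limma) at 0 h and -0.14 (95% interval -0.46 to 0.17, adjusted p = 0.402) at 4 h, neither called. Without WT1 the 0 h difference was 0.75 and was called (unadjusted p = 0.0311, limma). Stimulation raised Il15 by 4.97 (SE 0.21) in WT and 4.29 (SE 0.10) in cKO (limma, adjusted p = 0.00248 and 0.00117).

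Il15ra coverage at 0 h was 56.5 in WT1, 59.1 in WT2, 42.5 in cKO3 and 64.0 in cKO4. The cKO samples lay on either side of WT. At 4 h it was 3565 in WT1, 3665 in WT2, 5362 in cKO3 and 5158 in cKO4, with the replicates close together and both cKO samples above WT. At 4 h the log2 difference was 0.54 (95% interval 0.23 to 0.85, unadjusted p = 0.0114, adjusted p = 0.0768, limma), a fold change of 1.45, which is under the fold of 1.5 needed for a call. Relative to the median gene it was 0.23. At 0 h the difference was -0.15 (95% interval -0.95 to 0.66, adjusted p = 0.764, limma). Stimulation raised Il15ra by 5.96 (SE 0.12) in WT and 6.65 (SE 0.25) in cKO (limma, adjusted p = 0.00178 and 0.0016).

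**Figure D2:**
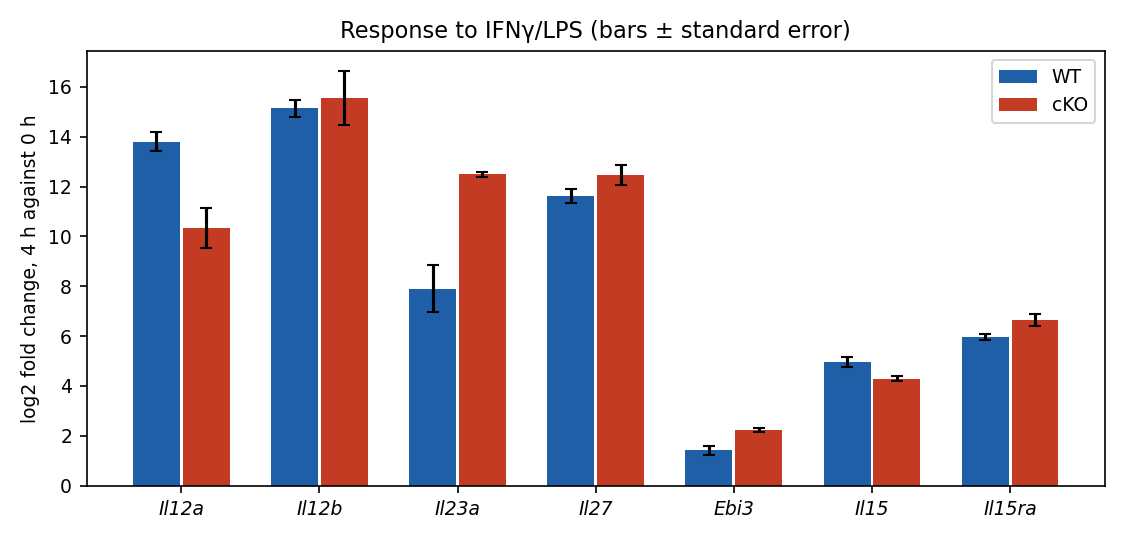
Log2 fold change of 4 h against 0 h on log2(coverage + 0.1) for each gene (bars, with the standard error from limma), blue for WT and red for cKO, 2 samples per group. All bars are above 0, from 1.42 for Ebi3 in WT to 15.54 for Il12b in cKO, and those of Il12a, Il23a and Il12b depend on the pseudocount, with the WT bar of Il12a and the cKO bar of Il23a measured from 0 h samples at the floor.

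Between the genotypes few members passed the test. At 0 h, 5 of the 7 met the filter without relying on the group in which they were higher, and limma called 0 of them higher in cKO and 1 lower (Ebi3), where 8.99% of all 16251 genes tested were called higher, 5.61% lower and 14.6% in either direction. Ebi3 was also the 1 of 5 with an unadjusted p under 0.05, against 21.3% of all genes, and it did not pass with Benjamini-Hochberg adjustment, as 1.03% of all genes did. Il12a met the rule only with WT at the floor, as described above, and Il23a was not tested. Il12a and Il15 lay above WT in both cKO samples, as 36.1% of all genes did, and Il27 and Ebi3 below, as 20.9% did. At 4 h, 0 of the 7 were called by limma (and 0 with adjustment, against 3.86% of all genes), where 20.8% of 14950 genes were called higher, 4.17% lower and 25.0% in either direction. At an unadjusted p under 0.05 it was 1 of the 7 (Il15ra) against 34.3% of all genes, and the other settings gave 0 to 2 higher and 0 to 1 lower. The median log2 difference of the 7 members at 4 h was -0.10, beside 0.31 for all genes. At 4 h Il12a, Il23a and Il15ra lay above WT in both cKO samples and Ebi3 and Il15 below, and over all genes 51.1% lay above and 14.9% below. Over all genes, 1461 were called higher and 912 lower at 0 h and 3112 and 624 at 4 h. After median-centring these were 1178 and 1135, and 1552 and 1480. The direction of no member changed under median-centring, equal totals or quantile normalization.

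**Figure D3:**
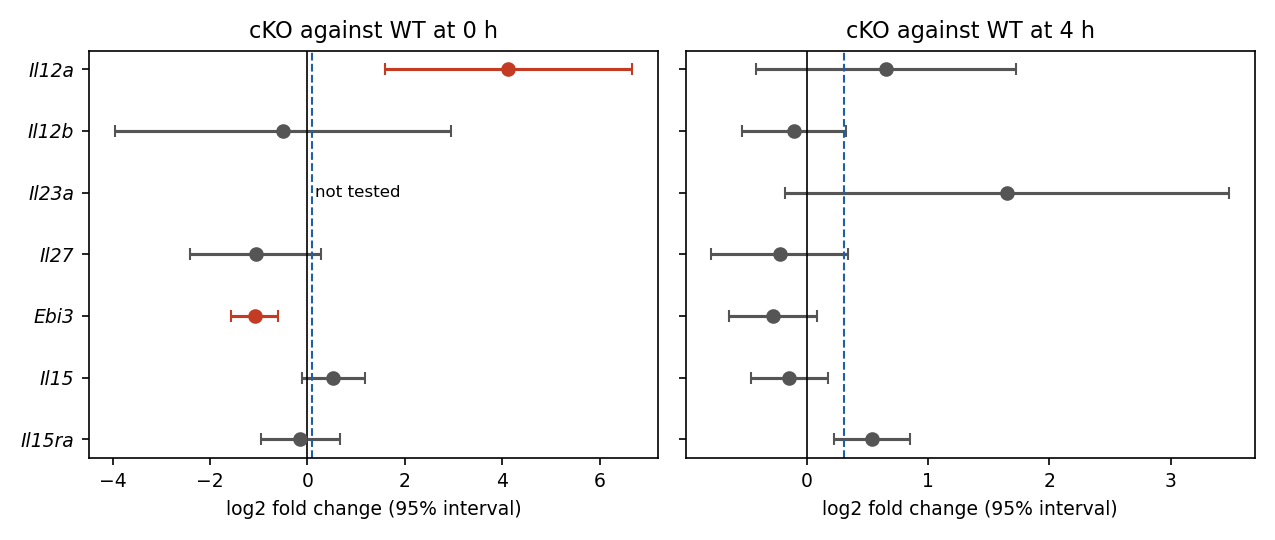
Log2 fold change between cKO and WT for each gene at 0 h (left) and 4 h (right), with its 95% interval from limma, 2 samples per group, red for called genes, and a dashed line at the median of all genes tested (0.10 and 0.31). Ebi3 is called at 0 h, Il12a meets the rule there with its WT samples at the floor, and no gene is called at 4 h, and the axes differ between the panels.

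Because each IL-12 family cytokine is a pair of chains, the ratio of the coverage of partner chains was taken within each sample. The ratio of Il15 to its receptor chain Il15ra was taken in the same way. A ratio within a sample removes any scaling of the sample. At 4 h Il12b exceeded Il12a by 24.5 times in WT1, 36.5 in WT2, 18.1 in cKO3 and 17.2 in cKO4. Its log2 value was 4.90 ± 0.41 (SD, n = 2) in WT and 4.14 ± 0.050 (SD, n = 2) in cKO. Il12b exceeded Il23a by 178 times in WT1, 404 in WT2, 85.3 in cKO3 and 74.2 in cKO4. So p40 transcript was in large excess over both partners in every sample, and the cKO samples had the lower excess, without overlap. Ebi3 to Il27 was 0.0698 in WT1, 0.0795 in WT2, 0.0675 in cKO3 and 0.0757 in cKO4 at 4 h, and the genotypes overlapped. At 0 h the same ratio was 83.4, 94.3, 123 and 63.2, so Ebi3 was the more covered IL-27 chain before stimulation and the less covered one after it. Ebi3 to Il12a at 4 h was 1.76 in WT1, 2.76 in WT2 and 1.15 in both cKO samples. Il15 to Il15ra at 4 h was 2.92 in WT1, 2.86 in WT2, 1.82 in cKO3 and 1.78 in cKO4. Its log2 value was 1.53 ± 0.019 (SD, n = 2) in WT and 0.85 ± 0.019 (SD, n = 2) in cKO, a difference of -0.68. At 0 h the same ratio differed the other way, by 0.68, with 6.87 and 4.88 in WT and 10.9 and 7.91 in cKO (log2 SDs 0.35 and 0.33). With 2 samples per group a two-sided exact permutation test cannot go below p = 0.33, which 4 of the 5 ratios reached at 4 h (0.417 after adjustment over the 5), so no difference of a ratio could pass this test. The ratios share chains and are not independent results. At 4 h Il12a, Il23a and Il15ra lay above WT in both cKO samples, as 51.1% of all genes did, and Ebi3 and Il15 below, as 14.9% did. The share of other gene pairs without overlap was not computed.

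**Figure D4:**
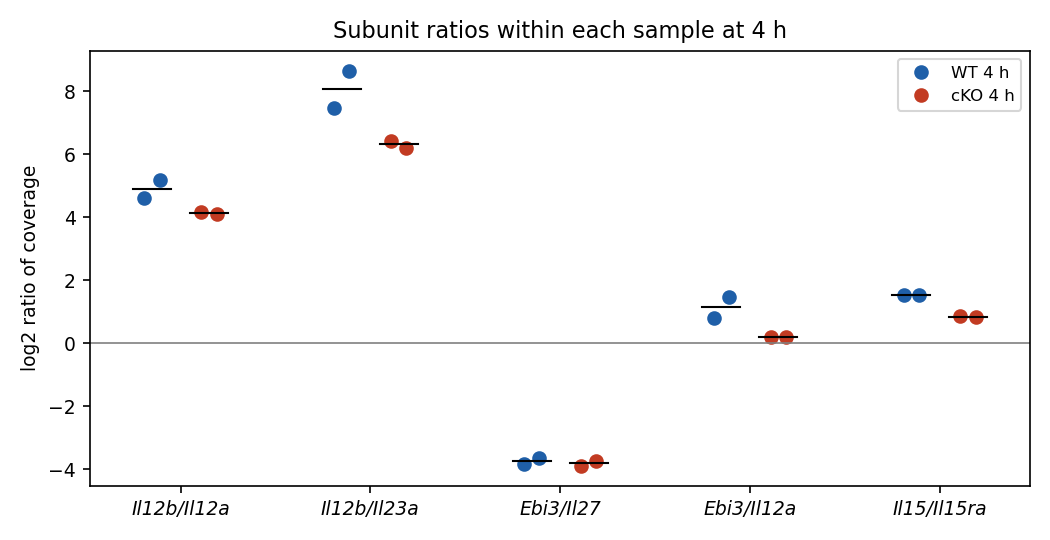
Log2 ratio of the coverage of partner chains, and of Il15 to its receptor chain Il15ra, within each sample at 4 h, blue for WT and red for cKO, with a line at each group's mean. Both cKO samples are below both WT samples for Il12b/Il12a, Il12b/Il23a, Ebi3/Il12a and Il15/Il15ra, and Ebi3/Il27 overlaps between the genotypes. The ratios share chains, and among all single genes at 4 h 51.1% lay above WT and 14.9% below in both cKO samples.

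Before stimulation the members together took 0.0125% and 0.010% of the summed coverage in WT, against 0.00695% and 0.0069% in cKO. At 0 h most of this share came from Ebi3. At 4 h they took 0.826% and 0.719% in WT and 0.644% and 0.586% in cKO, most of it from Il12b and Il27. The coverage of Il12b and of Il27 overlapped between the genotypes at 4 h. The summed coverage by which the shares are divided was then larger in cKO (17360205 and 17954882) than in WT (15552049 and 14950347). The part of this larger sum in the lower cKO shares was not tested, and no share of other gene sets is given.

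Whether the genotype difference itself changed with stimulation was assessed with an interaction term fitted to the 8 samples, with a Benjamini-Hochberg adjusted p under 0.05 as the call. None of the 7 was called by limma. Among the 5 other than Il12a and Il23a, 0 were called and 2 had an unadjusted p under 0.05 (Ebi3 and Il15), where 3.05% of 16284 genes were called and 22.1% had an unadjusted p under 0.05. Of these 5, Il12b was itself near 0 at 0 h (0.284 to 2.28). Over all genes 372 were called larger and 124 smaller at 4 h, and after median-centring 174 and 172. The difference at 4 h minus that at 0 h was 4.58 for Il23a (adjusted p = 0.0924, limma), 0.80 for Ebi3 (adjusted p = 0.0951), -3.47 for Il12a (adjusted p = 0.128) and -0.68 for Il15 (adjusted p = 0.185). Il15ra, Il27 and Il12b had 0.69, 0.84 and 0.40 (adjusted p = 0.254, 0.401 and 0.886). Il23a and Il12a entered this fit through their 4 h values, and with 0 h samples at 0 their size is set by the pseudocount. With a pseudocount of 1 the difference was 2.46 for Il23a and -0.93 for Il12a, and with 0.01 it was 7.68 and -5.85, so these 2 values are descriptions. Other settings called up to 2 members, Ebi3 with an intensity trend (adjusted p = 0.025, limma) and Il23a with that trend or with a pseudocount of 0.01 (adjusted p = 0.0384 and 0.0407).

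The receptors and regulators of these cytokines were followed as 35 genes in 5 lists. At 4 h all 35 were tested, and limma called 7 of them higher with the deletion and 1 lower, beside 20.8% and 4.17% of all genes, which is near the background. Median-centring, an alternative for these lists chosen after the data were seen, called 3 higher (Il12rb1, Il23r and Cebpb) and 3 lower (Batf3, Jak2 and Spi1). At 0 h 0 of 32 were called higher and 2 lower, beside 8.99% and 5.61%. At an unadjusted p under 0.05 there were 20 of 35 at 4 h and 3 of 32 at 0 h, beside 34.3% and 21.3%. The 4 h count depended on the scaling and was 7 after median-centring, 10 with equal totals and 12 with quantile normalization, for which no share of all genes is given. Of the IL-12 family receptor chains, 3 of 5 rose at 4 h and 0 fell on the deposited scale, beside 20.8% and 4.17% of all genes, and 2 of 5 (Il12rb1 and Il23r) were called after median-centring. Il12rb1, the chain that binds p40, had a coverage of 204 in WT1, 283 in WT2, 544 in cKO3 and 616 in cKO4, a log2 fold change of 1.27 (SE 0.23, unadjusted p = 0.0105, adjusted p = 0.0747, limma). Il23r, the second IL-23 receptor chain, was at 9.03 and 10.9 in WT at 4 h, against 20.5 and 20.9 in cKO, and at 0 in all 0 h samples. Its log2 fold change at 4 h was 1.05 (SE 0.15, unadjusted p = 0.00509, adjusted p = 0.0617, limma). Il6st, which encodes gp130, the signalling chain shared by IL-27 and IL-6, was at 133 and 146 in WT and 240 and 251 in cKO (log2 fold change 0.82, adjusted p = 0.0617, limma), or 0.51 relative to the median gene, and was not called after median-centring. Il6st was called with equal totals and not with quantile normalization. All cKO samples were above all WT samples for these 3 genes, as for 51.1% of all genes. Il27ra, the specific IL-27 receptor chain, fell in cKO at 0 h by 1.14 on the log2 scale (unadjusted p = 0.0408, adjusted p = 0.216, limma), from 24.0 and 40.3 in WT to 15.6 and 12.6 in cKO, and the genotypes overlapped at 4 h.

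Of the 3 IL-15 and IL-2 receptor chains, Il2ra, which binds IL-2 and not IL-15, rose at 4 h by 1.02 (log2, adjusted p = 0.142, limma) from 6.91 and 11.1 in WT to 15.8 and 20.0 in cKO, and was not called after median-centring. Il2rb, which IL-15 uses, was at 0.472 to 2.60 at 4 h, a log2 difference of 1.52 (unadjusted p = 0.0529, adjusted p = 0.15, limma) that was not called. Il2rg, the common gamma chain, was at 11735 to 13719 at 4 h in both genotypes. Of the 9 JAK kinases and STATs that carry these signals, 0 were called at either time by limma on the deposited scale (0 at 0 h and 3 at 4 h had an unadjusted p under 0.05), and their median log2 difference at 4 h was 0.16. Jak2 was called lower at 4 h after median-centring only. Stat4 was called lower at 0 h after median-centring, with equal totals and with quantile normalization.

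Of the 10 transcription factors known to act on Il12b and its relatives, 1 rose and 1 fell at 4 h, beside 20.8% and 4.17% of all genes. At an unadjusted p under 0.05 it was 7 of 10, beside 34.3% of all genes, and 3 of 10 after median-centring, with equal totals or with quantile normalization. The median log2 difference was 0.33 on the deposited scale, and after median-centring 1 was called higher and 2 lower, with Spi1 added. Cebpb, a factor of inflammatory gene promoters, had a coverage of 5850 in WT1, 4915 in WT2, 11412 in cKO3 and 13751 in cKO4, a log2 fold change of 1.22 (SE 0.18, adjusted p = 0.0632, limma). Batf3, which cross-presenting dendritic cells require, fell in cKO by 1.20 at 0 h (adjusted p = 0.191, limma) and by 0.98 at 4 h (adjusted p = 0.0541). Before stimulation its coverage was 31.0 and 28.3 in WT against 16.5 and 10.0 in cKO, and after it 73.6 and 69.5 against 37.4 and 35.0. Batf3 was thus lower in every cKO sample at both times. Of the 6 dendritic cell markers at 4 h, Xcr1 was called lower in cKO (17.5 and 52.4 in WT against 4.64 and 2.32) and Zbtb46 higher (6.59 and 7.08 in WT against 16.6 and 23.9), Clec9a, Flt3 and Ccr7 were not called, and Cd209a was at 0. Their part in the Batf3 values was not tested. Of the 8 inhibitors of Il12b expression or IL-12 signalling, 2 rose at 4 h and 0 fell on the deposited scale, beside 20.8% and 4.17% of all genes, and 0 of 8 were called after median-centring, with 0 at an unadjusted p under 0.05. With equal totals 1 was called higher (Nfil3) and with quantile normalization 0, with 3 at an unadjusted p under 0.05 in each. On the deposited scale 6 of 8 had an unadjusted p under 0.05, beside 34.3% of all genes, and the median log2 difference of the list was 0.57. Nfil3, a repressor of Il12b, rose by 0.85 (log2, adjusted p = 0.0883, limma), from 192 and 148 in WT to 296 and 311 in cKO. Socs1, which blocks JAK signalling, rose by 0.77 (adjusted p = 0.0881), from 2560 and 2139 in WT to 3727 and 4295 in cKO. Relative to the median gene these were 0.54 for Nfil3 and 0.47 for Socs1. None of the 4 h calls in these lists passed an adjusted p of 0.05, and the median log2 difference over the 35 genes was 0.38 at 4 h and -0.06 at 0 h, beside 0.31 and 0.10 for all genes.

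**Figure D5:**
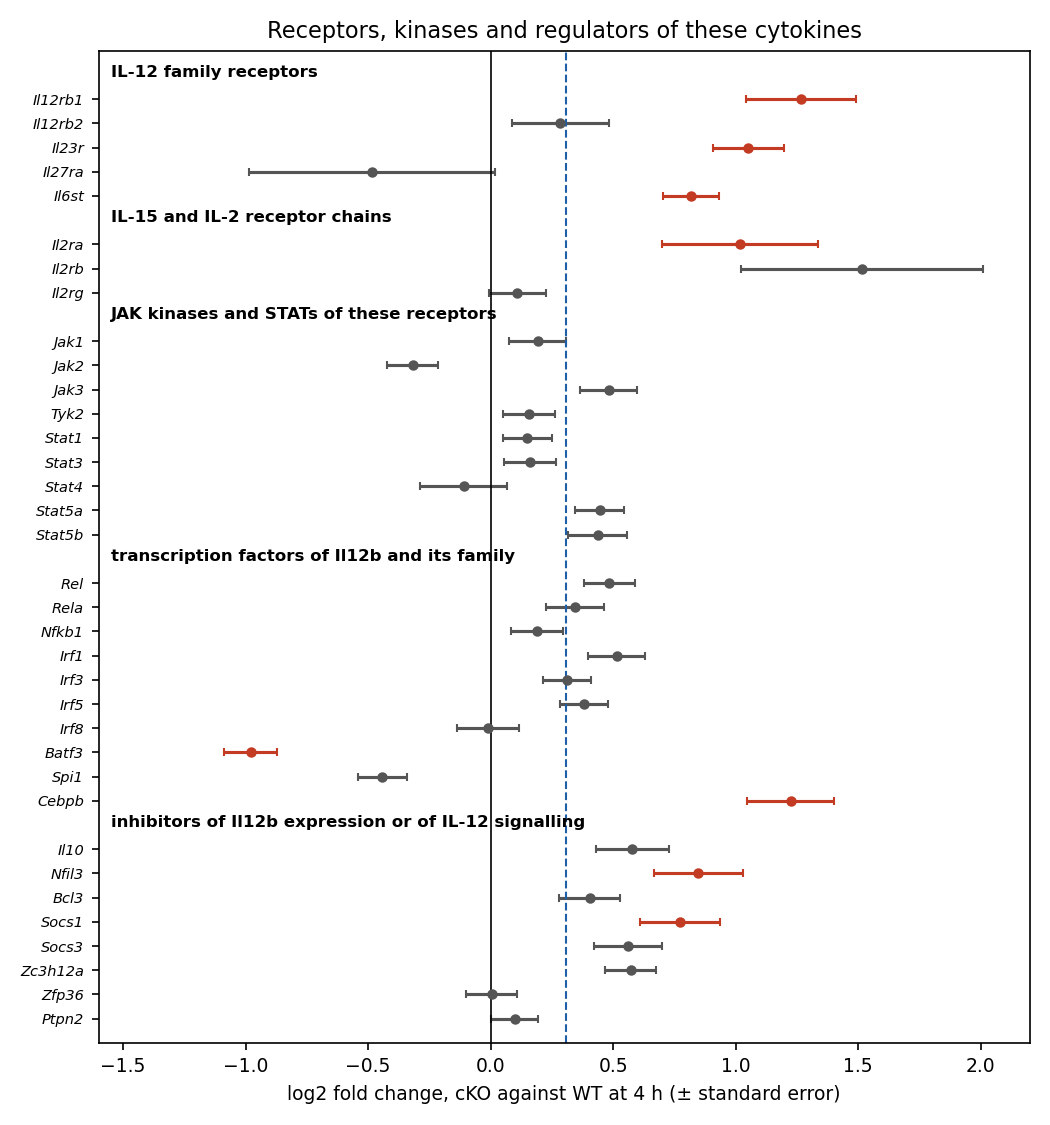
Log2 fold change between cKO and WT, at 4 h, for the 35 receptor, kinase, transcription factor and inhibitor genes, with the standard error from limma, 2 samples per group, red for called genes, a solid line at 0 and a dashed line at the median of all genes (0.31). Il12rb1, Il23r, Il6st, Il2ra, Cebpb, Nfil3 and Socs1 are called higher and Batf3 lower on the deposited scale, of which Il6st, Il2ra, Nfil3 and Socs1 were not called after median-centring. The same genes were not called with quantile normalization, while with equal totals Il6st and Nfil3 stayed called.

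The genes whose pattern over the 8 samples was most like each member were found as the smallest root mean square difference of log2 values centred on each gene's mean, among 16284 genes. For Il15ra the nearest was Cst7 (0.15 on the log2 scale), for Il15 Bst1 (0.15) and for Ebi3 H2-M3 (0.084). For Il27 it was Oasl1 (0.41), for Il12b Iigp1 (0.70), for Il12a Ifnb1 (0.73) and for Il23a Edn1 (0.92). Ifnb1 encodes interferon beta, Oasl1 and Iigp1 are interferon-induced genes and H2-M3 is a class Ib MHC gene. The next nearest were Abtb2 (0.21) and Gm11999 (0.22) for Il15ra, AI504432 (0.22) and Kcna3 (0.24) for Il15, and Tmeff1 (0.14) and Noct (0.17) for Ebi3. For Il27 they were U90926 (0.51) and Mir155hg (0.59), for Il12b Serpina3f (0.75) and Ccl12 (1.05), for Il12a Cxcl3 (0.98) and Gbp4 (1.27), and for Il23a Socs1 (0.95) and Cfb (0.98). The distance was smallest for members with coverage at both times and larger for those at or near 0 at 0 h.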

How the data were processed

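RNA of 8 BMDM samples was sequenced with paired ends, and per the labels and methods the authors aligned the reads to GRCm38 (mm10) with HISAT2 2.2.1, quantified RefSeq genes with StringTie 2.1.7 and deposited 1 table per time with a coverage signal for each gene and sample. The unit is not named in the tables and was read from the values, which behave as unscaled mean coverage per base. Read numbers per value are unknown, so no counting interval was computed and no count test was run. The authors' own fold changes, p-values, false discovery rates and classes were not used, and 0 columns of per-sample values were left unused. The library kit was NEBNext Ultra, with the strand setting not given in the sources used here.

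Genotypes at each time, and times within each genotype, were compared with limma 3.58.1 (R 4.3.3) after adding 0.1 and taking log2. Genes with a mean under 0.5 over the fitted samples were left out, and fold changes are on that scale, which understates the change of low genes. Calls followed the study's rule (fold change above 1.5, p under 0.05), with Benjamini-Hochberg adjustment over all genes beside it. The fit was tested on simulated data, which bears on the code and not on the calls. Samples of a group differed in nearly every gene, and nothing says that their cultures were independent beyond the pooled mice, so p-values measure the spread between these samples. Alternatives covered the pseudocount, filter, scaling, variance, samples fitted and replicates left out.

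Members and lists were chosen with earlier results of these data known. Named genes were the 7 members, Nudt21, each called gene of the lists and the 3 nearest genes of each member, and Il2rb, Il2rg, overlapping genes and single markers were added after their values were seen. Positions and 3′UTRs came from GENCODE M21, promoters from RefSeq.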

Additional observations from a re-analysis of the deposited data

Results flagged for a closer look

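Both results below were marked because the cKO samples lay on opposite sides of the WT samples at the 2 times. Both cKO samples had less Il23a than either WT sample at 0 h and more than either at 4 h, and the genotype difference at 4 h minus that at 0 h was 4.58 on the log2 scale. It did not pass the interaction test (limma, adjusted p = 0.0924, range 0.0384 to 0.239 over the alternatives). Il23a was under the filter at 0 h, where its highest coverage was 1.37, so the size is set by the pseudocount (2.46 with 1 and 7.68 with 0.01) and is a description. Both cKO samples had more Il15 than WT at 0 h and less at 4 h, a change of -0.68 (limma, adjusted p = 0.185, range 0.0715 to 0.392 over the alternatives). No group had the 4 samples needed to test for a single sample that stands apart.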

How the results depend on the processing

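No member changed direction under another pseudocount, filter, scaling or variance estimate, with the replicate block or with all 8 samples in the fit, while leaving out single samples turned the values named below. Stimulation calls stayed at 7 of 7 in both genotypes in all settings run, with Il12a in WT and Il23a in cKO counted though their 0 h samples were at the floor. At 0 h the count meeting the rule for higher (1, Il12a, which passed the filter only through cKO) was 0 with a mean of at least 5, with unmoderated variance and with adjusted p, and the count called lower was 2 with all 8 samples in the fit (Il27 added, adjusted p = 0.171, limma) and 0 with adjusted p. At 4 h the count called higher was 1 with a pseudocount of 1, 1 with a mean of at least 5 (Il23a in both) and 2 with an intensity trend (Il12a and Il23a), and the count called lower was 1 after median-centring (Ebi3). For the interaction the count was 1 with a pseudocount of 0.01 and 2 with an intensity trend. The causes were not tested, except that the filter at 5 removes Il12a at 0 h. Leaving out 1 sample at a time gave 0 to 1 higher and 1 to 2 lower at 0 h, 0 to 2 higher at 4 h and 0 for the interaction, with the lone sample assumed to vary like the others. Values that turned were Il12b at 0 h (-1.82 to 0.82) and Il15ra at 0 h (-0.44 to 0.15), both positive without cKO3, Il12b at 4 h (-0.22 to 0.012, positive without WT1) and the Il12b interaction (-0.92 to 1.71, negative without cKO3). The Ebi3 to Il27 difference ranged from -0.49 to 0.46 at 0 h (0.069 without WT2 and 0.46 without cKO4) and from -0.15 to 0.035 at 4 h (0.035 without WT2 and 0.024 without cKO3).

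The replicate numbers recur at both times, but the labels do not say that they mark the same mice, and the deviations of same-numbered samples correlated at 0.024 in WT and 0.022 in cKO over 2 pairs each. With the replicate number as a block, 7 of 7 members were called higher in WT and 7 of 7 in cKO. Of these, Il12a in WT and Il23a in cKO met the filter only through their 4 h samples, so their calls support nothing. With the block 0 members were called for the interaction, and the log2 fold changes were the same as without it (Il12b 15.15 in WT, adjusted p = 0.0229, limma). Over all genes the block moved the calls for the interaction from 372 larger and 124 smaller to 15 and 16, and the stimulation calls by less (1907 to 1860 higher in WT). WT and cKO share no number, so the genotype comparisons have no such fit. A count model could not be run on coverage. Of the pathway genes at 4 h, 3 to 5 were called higher and 2 to 3 lower under the other scalings, against 7 and 1, in fits chosen after the data were seen.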
